A study of Mus musculus with 23 samples.

Results

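Mitochondrial biogenesis depends on nuclear genes that switch on the copying, transcription and protein supply of mitochondria, and 10 such regulators were described in the mouse hippocampus: Ppargc1a, Ppargc1b, Tfam, Nrf1, Esrra, Sirt1, Sirt3, Polg, Polrmt and Gabpa. They were chosen by gene symbol for their known roles, and all 10 were found among the 19733 genes of the deposited table, each in a single row. The table holds the RNA sequencing of 23 male C57BL/6J mice: 9 Ctrl, 7 EtOH and 7 EtOH-UA mice. All were wild type, acquired at 6 weeks of age and kept for 16 weeks on a liquid diet, which was the control diet for Ctrl mice and contained ethanol for EtOH and EtOH-UA mice. All groups were gavaged daily, with vehicle in Ctrl and EtOH mice and with urolithin A (UA, a metabolite that gut bacteria make from ellagitannins) at 200 mg/kg/day in EtOH-UA mice, and behavioral tests took 1 week. No difference between groups passed the test for any of the 10 regulators. Their levels varied between mice of a group, and for 7 of them this spread went with a property of the sequencing libraries. How large a share of all genes does so was not determined.

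PGC-1alpha and PGC-1beta, the proteins of Ppargc1a and Ppargc1b, are coactivators: they do not bind DNA themselves and work through transcription factors. Among these factors are nuclear respiratory factor 1 (Nrf1), GABP, whose DNA-binding subunit is made by Gabpa and which is also called NRF-2, and the estrogen-related receptor alpha (Esrra). Their targets include Tfam, whose product enters mitochondria, packages the mitochondrial DNA and starts its transcription, together with the mitochondrial RNA polymerase (Polrmt) and beside the catalytic subunit of the mitochondrial DNA polymerase (Polg). The NAD-dependent deacetylases SIRT1, which acts on PGC-1alpha in the nucleus, and SIRT3, which acts on proteins within mitochondria, tie this program to the energy state of the cell. In neurons the program supplies axons and synapses, which use much ATP. The symbol Nrf1 stands here for nuclear respiratory factor 1, and not for the stress-response factors that share this short name in part of the literature.

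In the RefSeq annotation of GRCm38 the coactivators are Ppargc1a (gene ID 19017) at chr5:51454249-52115853 and, on another chromosome, Ppargc1b (gene ID 170826). The transcription factors are Nrf1 (gene ID 18181) at chr6:30047985-30153458, Gabpa (gene ID 14390) at chr16:84834891-84863783 and Esrra (gene ID 26379) at chr19:6910977-6922048. The deacetylases are Sirt1 (gene ID 93759) at chr10:63319005-63339035 and Sirt3 (gene ID 64384) at chr7:140863663-140882309. The genes that act on mitochondrial DNA are Tfam (gene ID 21780) at chr10:71225468-71238328, Polg (gene ID 18975) at chr7:79446231-79467911 and Polrmt (gene ID 216151) at chr10:79736125-79746604.

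Windows of 250 bases before an annotated transcription start were available from RefSeq (GRCm38.p6) for 9 of the 10 genes. There were 11 windows, because Nrf1 and Sirt3 had more than a single one. The windows do not cover every start of these genes. That of Ppargc1a ends at chr5:51567975, whereas its gene span reaches farther upstream, to chr5:52115853 on the minus strand. Each window was searched on both strands for motifs of the factors named above. The ETS core that GABP binds, CCGGAAG, was found for Tfam, Sirt3, Polg, Polrmt and Gabpa, which makes 5 of 9 genes, and 6.91% of all 32851 promoter windows of this length hold it. The NRF1 core CGCATGCG was found for Gabpa alone (1.55% of all windows). Its relaxed form CGCANGCG, which includes the strict core, was found for Nrf1, Esrra and Gabpa (6.76%). The YY1 motif AANATGGCG was found for Gabpa (1.12%). The cyclic AMP response element TGACGTCA was found in no window of the 9 genes (1.55% of all), and its shortened form TGACGT was found for Ppargc1a (6.47%). Neither the estrogen-related receptor element TCAAGGTCA (0.387%) nor its core AAGGTCA (4.08%) was found. No match says only that these letters are not in these bases, and a match is not a bound site. GC content of the 11 windows ran from 43.2% to 79.2%, and 8 of them lay above the median of all windows, 52.4%. Regulators were counted per gene and the shares of all promoters per window, and these windows were not matched for GC content. The 2 are therefore not like for like, and no excess of a motif was tested. The 5 windows with the ETS core and that of Ppargc1a, the regulator with the widest difference between groups, are given here from 5′ to 3′ on the strand of the gene, with the matches in capitals. They are chr10:71238045-71238294 (minus strand) for Tfam, chr7:140882310-140882559 (minus) for Sirt3, chr7:79466274-79466523 (minus) for Polg, chr10:79746582-79746831 (minus) for Polrmt, chr16:84834874-84835123 (plus) for Gabpa and chr5:51567726-51567975 (minus) for Ppargc1a.
Tfam: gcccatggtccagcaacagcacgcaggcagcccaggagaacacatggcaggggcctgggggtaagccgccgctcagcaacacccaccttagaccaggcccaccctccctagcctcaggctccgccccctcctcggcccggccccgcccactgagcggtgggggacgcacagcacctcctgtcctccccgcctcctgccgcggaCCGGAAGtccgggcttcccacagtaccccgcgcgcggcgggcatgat
Sirt3: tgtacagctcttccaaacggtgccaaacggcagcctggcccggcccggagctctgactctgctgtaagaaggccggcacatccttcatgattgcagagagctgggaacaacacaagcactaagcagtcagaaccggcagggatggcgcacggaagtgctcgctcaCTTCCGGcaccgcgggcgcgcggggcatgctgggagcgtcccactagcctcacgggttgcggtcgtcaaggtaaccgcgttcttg
Polg: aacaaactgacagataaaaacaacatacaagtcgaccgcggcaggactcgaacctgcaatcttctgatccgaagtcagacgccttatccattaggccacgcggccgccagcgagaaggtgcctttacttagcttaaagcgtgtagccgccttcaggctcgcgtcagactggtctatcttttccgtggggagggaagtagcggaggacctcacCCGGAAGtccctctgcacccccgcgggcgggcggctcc
Polrmt: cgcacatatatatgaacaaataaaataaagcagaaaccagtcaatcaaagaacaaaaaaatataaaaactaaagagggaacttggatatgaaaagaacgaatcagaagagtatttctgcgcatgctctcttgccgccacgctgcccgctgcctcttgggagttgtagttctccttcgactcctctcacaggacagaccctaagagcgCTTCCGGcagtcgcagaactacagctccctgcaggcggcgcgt
Gabpa: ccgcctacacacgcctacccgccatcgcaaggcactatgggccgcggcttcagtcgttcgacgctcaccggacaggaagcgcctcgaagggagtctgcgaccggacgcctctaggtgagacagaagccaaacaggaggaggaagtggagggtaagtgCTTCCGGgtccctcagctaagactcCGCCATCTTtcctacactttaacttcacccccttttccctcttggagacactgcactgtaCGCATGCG
Ppargc1a: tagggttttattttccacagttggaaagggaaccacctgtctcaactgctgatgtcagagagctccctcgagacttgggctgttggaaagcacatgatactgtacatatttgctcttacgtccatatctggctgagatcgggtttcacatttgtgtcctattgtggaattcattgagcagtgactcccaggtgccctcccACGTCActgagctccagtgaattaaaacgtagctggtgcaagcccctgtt

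In these sequences the ETS core lay 47 to 41 bases before the start of Tfam, 38 to 32 bases before that of Polg and, on the opposite strand, 43 to 37 bases before that of Polrmt. In Sirt3 it lay 85 to 79 bases and in Gabpa 93 to 87 bases before the start, both on the opposite strand. The Gabpa window also held the YY1 motif 68 to 60 bases and the NRF1 core, which reads the same on both strands, 8 to 1 bases before the start. The shortened cyclic AMP response element of Ppargc1a lay on the opposite strand, 50 to 45 bases before the start to which this window belongs.

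Values are FPKM, fragments scaled to transcript length and library size, so that levels of genes of different length can be set side by side. Summed FPKM ran from 327896 to 404609 per library and between 16996 and 17413 genes were above 0. From the steps between low FPKM values of 48 genes, 1 FPKM stood for 16.9 fragments per kb (median over genes), so that the mean level of a regulator stood for about 234 fragments (Ppargc1b) to 1736 fragments (Sirt3) per mouse, taking the longest annotated transcript. Of 10 marker genes of hippocampal excitatory neurons all 10 averaged at least 1 FPKM, and their summed level was 1426 to 1811 FPKM in the 23 mice, as the label of the tissue would have it. Summed markers of the choroid plexus, a neighboring tissue, varied widely in each group, with medians of 61.5 FPKM in Ctrl mice (8.45 to 2991), 1288 in EtOH mice (71.9 to 5797) and 1872 in EtOH-UA mice (16.9 to 7853), and their part in the values below was not tested. Oligodendrocyte markers summed to a median of 1340 FPKM in Ctrl mice (1077 to 2320). The median was 1823 in EtOH mice (1409 to 2056) and 1468 in EtOH-UA mice (1199 to 2422), with overlapping ranges. These are bulk samples, in which fewer cells of a type and less RNA per cell cannot be told apart.

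A summed FPKM above 350000 was found in 6 libraries, those of Ctrl mice 135, 200 and 203, EtOH mouse 189 and EtOH-UA mice 137 and 141, named by the mouse numbers of the table. In the same 6 libraries the levels of long transcripts were low relative to short ones. The slope of log2 level, taken as deviation from the gene's mean over all mice, on log2 transcript length over 12618 genes was -0.26 in EtOH-UA mouse 137, -0.16 in EtOH-UA mouse 141 and -0.11 in EtOH mouse 189, and from -0.08 to -0.06 in the 3 Ctrl mice. In the other 17 libraries it ran from -0.01 to 0.09. Counts for the regulators, their pairs and the lists of other pathway genes are also given without these 6 libraries. Unless stated otherwise, other values are given over all mice only. These include the single genes of the lists and the genes most like each regulator.

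The regulators spanned the middle and upper range of all 19733 genes, of which 12904 averaged at least 1 FPKM. Their ranks among those 12904 genes alone would be lower. Over all 23 mice Sirt3 had the highest mean level, 32.0 ± 5.02 FPKM (SD, n = 23), followed by Esrra (14.9 ± 2.01), Polg (12.9 ± 1.02), Tfam (11.2 ± 0.87), Ppargc1a (9.72 ± 1.57), Gabpa (7.63 ± 0.977), Nrf1 (6.20 ± 0.364), Polrmt (6.13 ± 0.465), Sirt1 (5.81 ± 0.525) and Ppargc1b (3.77 ± 0.508). Of the 19733 genes, 88.0% had a lower mean than Sirt3 and 48.0% a lower mean than Ppargc1b. Sirt3 was the only regulator whose range did not overlap that of its neighbor in this order: its lowest mouse had 23.5 FPKM and the highest mouse for Esrra 18.1 FPKM. Sirt1 was above Ppargc1b in all 23 mice although their ranges overlapped (lowest Sirt1 4.45, highest Ppargc1b 4.52 FPKM). Nrf1 was above Polrmt in 14 of 23 mice and Polrmt above Sirt1 in 14 of 23, so neither pair of neighbors differed beyond its spread. The plot of levels by mouse shows the overlap of the 3 groups for every gene.

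**Figure D1:**
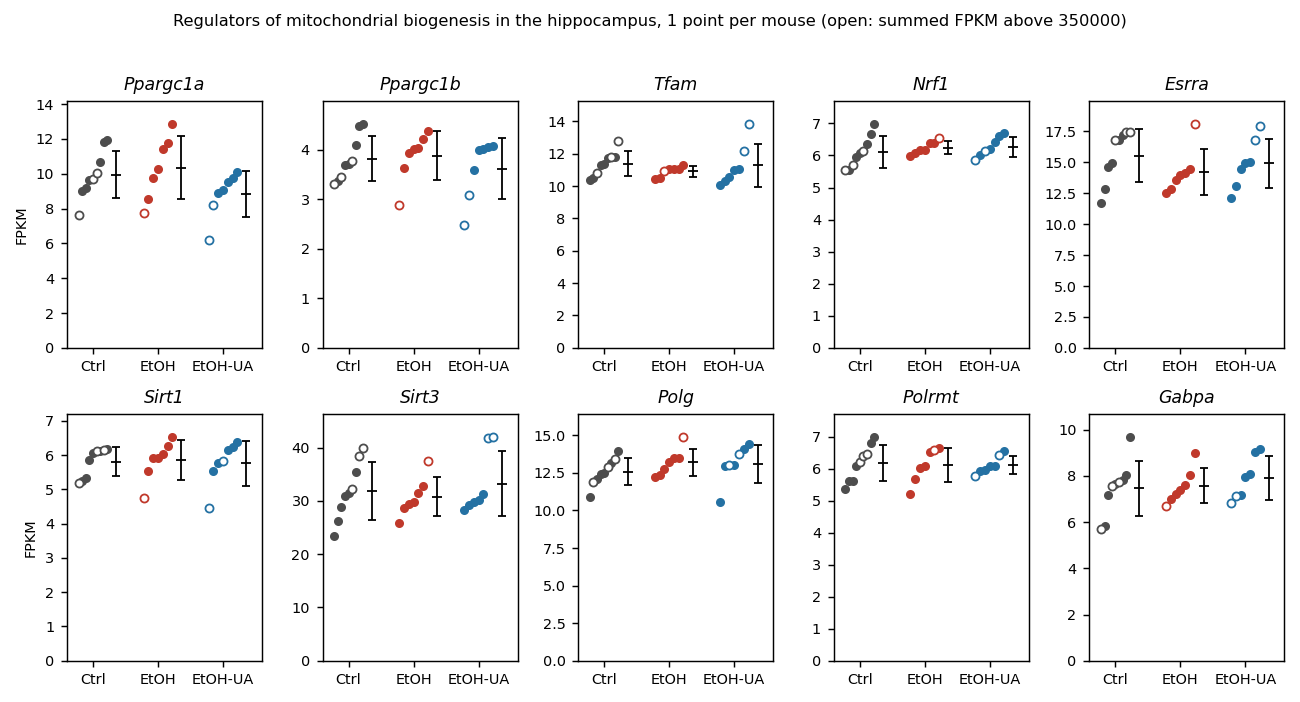
FPKM (vertical axes, from 0) of the 10 regulators in each of 9 Ctrl, 7 EtOH and 7 EtOH-UA mice, sorted by value within a group, with the mean and SD beside the points in black. Open points are the 6 libraries with a summed FPKM above 350000; most lie low in Ppargc1a and Ppargc1b and high in Esrra and Sirt3, and the 3 groups overlap in all 10 panels.

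Among the coactivators, Ppargc1a had 7.64 to 11.96 FPKM in Ctrl mice with a median of 9.68, 7.76 to 12.9 in EtOH mice with a median of 10.3, and 6.18 to 10.1 in EtOH-UA mice with a median of 9.05. All 7 EtOH-UA mice lay below the median of the EtOH mice, yet the highest EtOH-UA mouse was above the 3 lowest EtOH mice and the groups overlapped. Ppargc1b, its close relative, had 3.31 to 4.52 FPKM in Ctrl mice with a median of 3.70, 2.88 to 4.38 in EtOH mice with a median of 4.02, and 2.47 to 4.07 in EtOH-UA mice with a median of 4. The lowest mouse was the same for both coactivators within the EtOH group (mouse 189) and within the EtOH-UA group (mouse 137), and both are among the 6 libraries named above.

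Of the transcription factors, Esrra was the most abundant, with 11.7 to 17.5 FPKM in Ctrl mice (median 16.8), 12.5 to 18.1 in EtOH mice (median 14.0) and 12.1 to 18.0 in EtOH-UA mice (median 14.9). All but 1 of 7 EtOH mice were below the Ctrl median, and EtOH mouse 189, at 18.1 FPKM, was the highest of all 23 mice. Gabpa had 5.70 to 9.70 FPKM in Ctrl mice (median 7.64), 6.70 to 9 in EtOH mice (median 7.41) and 6.82 to 9.17 in EtOH-UA mice (median 7.97). Its Ctrl range enclosed both other groups. Nrf1 was the steadiest regulator, at 5.54 to 6.99 FPKM in Ctrl mice (median 6.09), 5.97 to 6.54 in EtOH mice (median 6.18) and 5.85 to 6.71 in EtOH-UA mice (median 6.21). Its SD within groups was 0.085 on the log2 scale, and 7.94% of the 12904 genes that averaged 1 FPKM or more varied less.

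The deacetylase Sirt1 had 5.19 to 6.18 FPKM in Ctrl mice (median 6.07), 4.74 to 6.54 in EtOH mice (median 5.93) and 4.45 to 6.38 in EtOH-UA mice (median 5.82). Sirt3, its mitochondrial counterpart, had 23.5 to 39.9 FPKM in Ctrl mice (median 31.5), 25.8 to 37.5 in EtOH mice (median 29.8) and 28.2 to 42.1 in EtOH-UA mice (median 30.2). The EtOH-UA values of Sirt3 fell into 5 mice between 28.2 and 31.4 FPKM and mice 137 and 141 at 42.1 and 41.9 FPKM. Within groups Sirt3 (SD 0.23 on the log2 scale), Ppargc1a (0.23) and Ppargc1b (0.21) varied most among the 10 genes, above the median SD of 0.16 over 12904 genes.

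The genes that act on mitochondrial DNA were close to one another in spread. Tfam had 10.4 to 12.8 FPKM in Ctrl mice (median 11.4), 10.4 to 11.3 in EtOH mice (median 11.1) and 10.04 to 13.9 in EtOH-UA mice (median 11.02). All 7 EtOH mice lay below the Ctrl median, within the Ctrl range. Polg had 10.9 to 14.0 FPKM in Ctrl mice (median 12.5), 12.3 to 14.9 in EtOH mice (median 13.2) and 10.6 to 14.4 in EtOH-UA mice (median 13.0). Polrmt had 5.35 to 7.00 FPKM in Ctrl mice (median 6.20), 5.21 to 6.66 in EtOH mice (median 6.08) and 5.76 to 6.56 in EtOH-UA mice (median 6.08). SDs within groups were 0.11 for Tfam, 0.12 for Polg and 0.11 for Polrmt on the log2 scale. Exons of Sirt3, Polg, Gabpa and Esrra overlap those of protein-coding genes on the other strand (Ric8a and Psmd13, Fanci, Atp5j and Trmt112, respectively) by 1.66% to 8.57% of their exonic bases, and whether the counting used strand is not given in the sources used here.

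To see whether chronic alcohol changed the regulators, EtOH mice were compared with Ctrl mice. None of the 10 passed an adjusted p of 0.05, and 0% of the 15985 genes tested did (limma, Benjamini-Hochberg over all genes tested). At an unadjusted p under 0.05 there were 0 of 10 regulators, against 487 genes or 3.05% of all, and 0 of 10 by the exact permutation test. The log2 fold change was positive for 6 regulators and negative for 4, with a median of 0.01 against -0.003 over all genes. The widest difference was that of Esrra, 14.2 ± 1.86 against 15.5 ± 2.14 FPKM, with a log2 fold change of -0.12 (SE 0.09, 95% interval -0.32 to 0.07, limma adjusted p = 0.999, two-sided exact permutation p = 0.213). For Polg it was 0.07 (interval -0.05 to 0.20) and for Tfam -0.06 (interval -0.18 to 0.06). The other 7 lay between -0.04 (Sirt3) and 0.05 (Ppargc1a).

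UA was given to alcohol-fed mice only, so that EtOH-UA mice were compared with EtOH mice. Ppargc1a had the widest difference of all regulators and comparisons, 8.81 ± 1.32 against 10.3 ± 1.81 FPKM, with a log2 fold change of -0.22 (SE 0.12, 95% interval -0.46 to 0.01). It did not pass the test (limma unadjusted p = 0.0640, adjusted p = 0.900, two-sided exact permutation p = 0.0962 over 3432 splits). The value was -0.14 without EtOH-UA mouse 137, -0.17 without the 6 libraries of high summed FPKM and -0.11 with the length slope as covariate. Among the 10 regulators 0 passed an adjusted p of 0.05, against 0% of all genes, and 0 an unadjusted p of 0.05, against 523 genes or 3.27%. The value was positive for 6 and negative for 4, with a median of 0.01. Ppargc1b was at -0.11 (interval -0.33 to 0.12), Sirt3 at 0.10 (interval -0.13 to 0.33), and both turned with the covariate (0.014 and -0.023). With mice left out in turn Ppargc1b ran from -0.17 to -0.021, the latter without EtOH-UA mouse 137, and Sirt3 from 0.040, without the same mouse, to 0.15. The other 7 lay between -0.02 (Sirt1) and 0.07 (Esrra).

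EtOH-UA mice were also compared with Ctrl mice, a comparison that shares its groups with both others. Again 0 of 10 regulators passed an adjusted p of 0.05 (0% of all genes) and 0 an unadjusted p of 0.05 (492 genes or 3.08%). Ppargc1a was at 8.81 ± 1.32 against 9.95 ± 1.37 FPKM, with a log2 fold change of -0.18 (SE 0.11, interval -0.40 to 0.05, limma adjusted p = 0.999, two-sided exact permutation p = 0.117 over 11440 splits). Without EtOH-UA mouse 137 it was -0.10. Gabpa was at 0.09 (interval -0.10 to 0.28) and Ppargc1b at -0.09 (interval -0.30 to 0.12). The value was positive for 4 regulators and negative for 6, with a median of -0.01.

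Over the 3 comparisons the intervals reached from 0.10 to 0.24 log2 units to either side of the estimate, narrowest for Nrf1 and widest for Ppargc1a, and the bound farthest from 0 was -0.46. Differences within these intervals are not excluded by these data, so a p that missed the threshold does not show that the groups are alike.

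**Figure D2:**
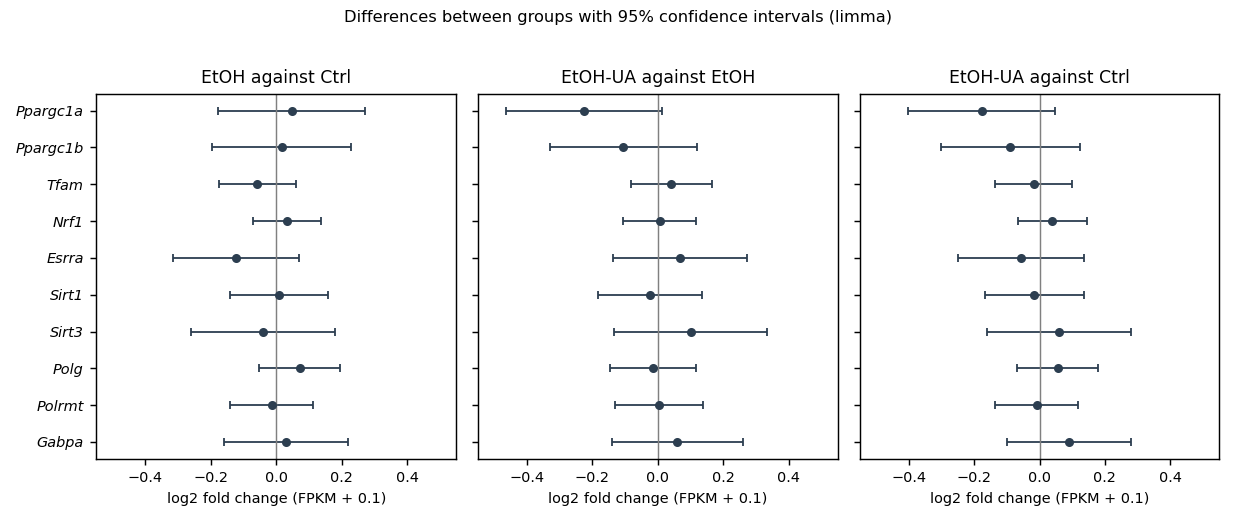
Log2 fold changes of the 10 regulators (points) with 95% confidence intervals (bars) from limma on log2(FPKM + 0.1), for EtOH against Ctrl, EtOH-UA against EtOH and EtOH-UA against Ctrl mice. All 30 intervals include 0, and the farthest estimate is that of Ppargc1a in EtOH-UA against EtOH mice at -0.22.

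Within groups, the levels of most regulators followed the length slope of the library. Over 23 mice, with group means removed, Pearson's r with the slope was 0.875 for Ppargc1b (rho 0.708), 0.739 for Ppargc1a (rho 0.515), 0.529 for Sirt1 (rho 0.5) and 0.514 for Gabpa (rho 0.570). It was -0.824 for Sirt3 (rho -0.836), -0.743 for Esrra (rho -0.786) and -0.697 for Tfam (rho -0.643). These 7 of 10 relations passed a permutation test within groups after Benjamini-Hochberg adjustment over 10 genes, with adjusted p from 0.0001 to 0.0391 for r and from 0.0002 to 0.0293 for rho, and 100000 permutations give no p below 1e-05. The share of all genes that pass the same test was not determined, so the count is not shown to be particular to the regulators. Nrf1 (r = 0.270, rho 0.280, permutation adjusted p = 0.238), Polg (r = -0.276, rho -0.251, p = 0.318) and Polrmt (r = -0.189, rho -0.353, p = 0.320) did not pass. Without the 2 mice farthest from the median slope, r was 0.745 for Ppargc1b, 0.530 for Ppargc1a, 0.594 for Sirt1, 0.488 for Gabpa, -0.790 for Sirt3, -0.729 for Esrra and -0.558 for Tfam. For the regulators that did not pass, it was then 0.42 (Nrf1), -0.077 (Polg) and -0.304 (Polrmt).

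The 6 libraries are the ones with the lowest slopes. Sirt3 averaged 38.7 ± 3.63 FPKM in them and 29.6 ± 2.75 in the other 17, and Esrra 17.4 ± 0.558 against 14.1 ± 1.52. Ppargc1a averaged 8.25 ± 1.42 FPKM in the 6 libraries and 10.2 ± 1.28 in the 17, and Ppargc1b 3.16 ± 0.453 against 3.99 ± 0.317. Among the 17 libraries alone r was 0.459 for Ppargc1b, 0.357 for Ppargc1a, 0.461 for Sirt1, 0.351 for Gabpa, -0.422 for Sirt3, -0.505 for Esrra and -0.168 for Tfam. In them 0 of 10 relations passed (smallest permutation adjusted p = 0.366). Leaving out the 6 libraries narrows the range of the slope and lowers the power, so lower values of r there do not show where the relations come from. The longest annotated transcripts of the 4 regulators with a positive relation that passed are 3.66 kb (Ppargc1b), 4.43 kb (Sirt1), 4.99 kb (Gabpa) and 6.46 kb (Ppargc1a), and those of the 3 with a negative relation 2.49 kb (Esrra), 3.21 kb (Sirt3) and 4.17 kb (Tfam). Those of the regulators that did not pass are 4.04 kb (Nrf1), 4.29 kb (Polrmt) and 7.84 kb (Polg), the last being the longest of all 10. Whether the relations follow transcript length was not tested.

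**Figure D3:**
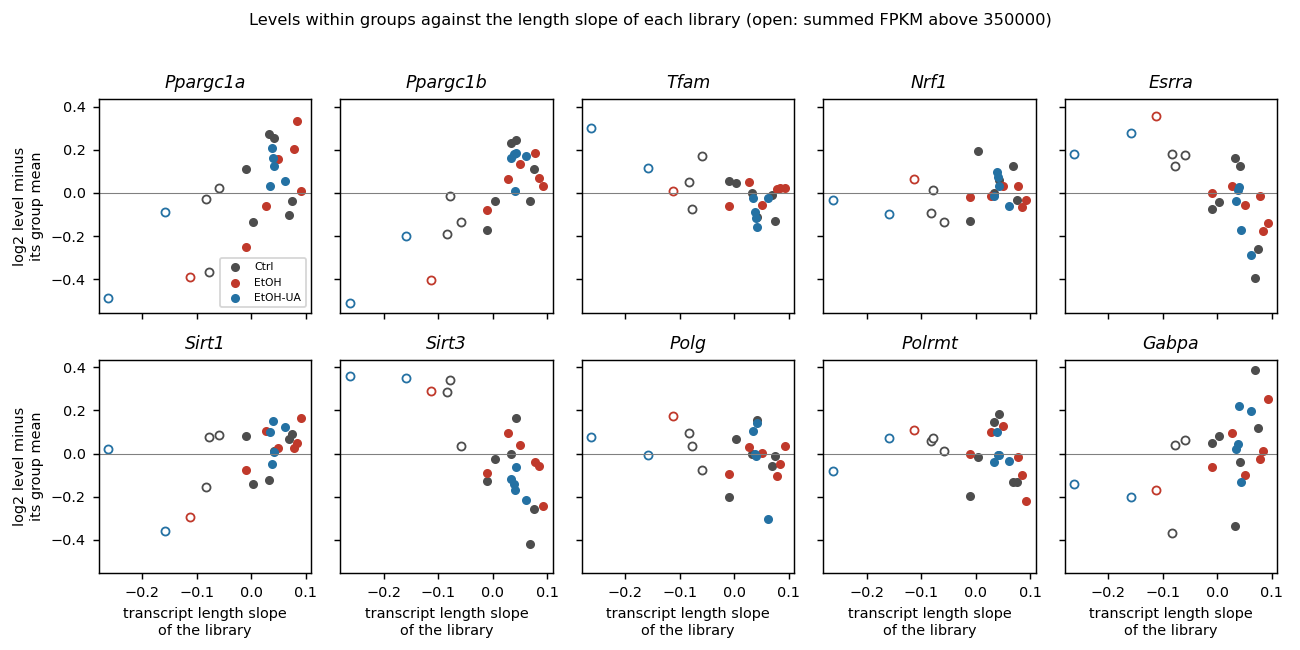
Log2(FPKM + 0.1) of each regulator minus its group mean (vertical axis) against the transcript length slope of the library (horizontal axis), for 23 mice colored by group, with the 6 libraries of summed FPKM above 350000 as open points. Ppargc1a and Ppargc1b lie low and Esrra and Sirt3 high at the negative slopes on the left. The relations of Nrf1, Polg and Polrmt did not pass the test (r from -0.276 to 0.270).

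How the regulators varied together within groups was examined over all 45 pairs. The correlation was positive for 20 pairs and negative for 25, and 11 passed the permutation test after adjustment over 45 pairs, 5 of them positive and 6 negative. The strongest was that of Esrra and Sirt3 (r = 0.850, rho 0.804, permutation adjusted p = 0.0009 for r and 0.000675 for rho), with r = 0.796 without the 2 mice farthest from the median of Esrra. The coactivators Ppargc1a and Ppargc1b went together (r = 0.754, rho 0.743, permutation adjusted p = 0.00465 and 0.00315), with r = 0.546 without the 2 farthest mice. Sirt1 and Gabpa did so as well (r = 0.677, rho 0.781, permutation adjusted p = 0.00157 and 0.000675). Esrra and Polrmt (r = 0.611) and Sirt3 and Polrmt (r = 0.560) were the other positive pairs that passed. With upper-quartile scaling all 3 Polrmt pairs that had passed lost the call, namely those with Esrra, Sirt3 and Gabpa (permutation adjusted p = 0.117, 0.182 and 0.195), and so did Ppargc1b and Tfam (0.0948). Negative pairs that passed were Sirt3 and Gabpa (r = -0.704), Ppargc1b and Tfam (-0.692), Esrra and Gabpa (-0.680), Esrra and Sirt1 (-0.609), Sirt1 and Sirt3 (-0.557) and Polrmt and Gabpa (-0.549). By rank correlation 8 of 45 pairs passed. The share of pairs among all genes that pass the same test was not determined. These counts are therefore not shown to be particular to the regulators.

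In the 17 libraries of lower summed FPKM 0 of 45 pairs passed, and 29 of 45 had the sign they had in all 23 mice. Esrra and Sirt3 had r = 0.772 there (permutation adjusted p = 0.0533), Sirt3 and Polrmt r = 0.784 (0.0533), Sirt1 and Gabpa 0.657 (0.0881), and Ppargc1a and Ppargc1b 0.555 (0.207). Ppargc1b and Sirt3 changed sign, from -0.509 to 0.465. Over all 23 mice, of the other 4 genes whose promoter windows held the ETS core, Sirt3 (r = -0.704) and Polrmt (r = -0.549) passed as negative pairs with Gabpa, while Polg (r = -0.386) and Tfam (r = -0.199) did not. Polrmt and Gabpa did not pass by rank (permutation adjusted p = 0.0605), and in the 17 libraries no such pair passed.

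**Figure D4:**
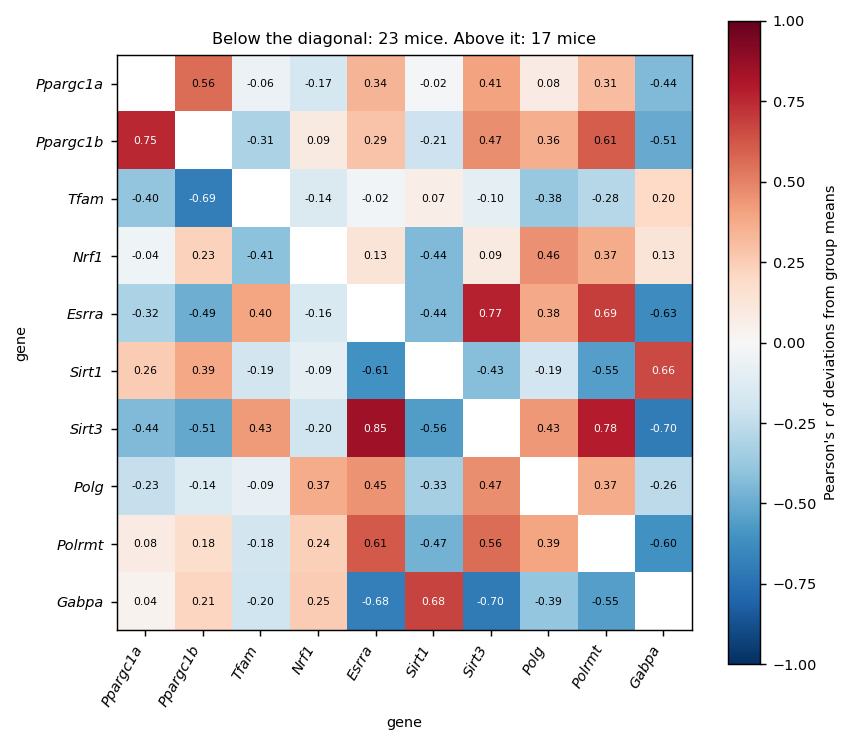
Pearson's r of the deviations from group means for the 45 pairs of regulators, below the diagonal over all 23 mice and above it over the 17 mice with a summed FPKM under 350000 (red positive, blue negative). Esrra, Sirt3 and Polrmt are positive with each other on both sides of the diagonal (0.56 to 0.85 below, 0.69 to 0.78 above), whereas Ppargc1b and Sirt3 change sign.

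Among 12903 other genes that averaged 1 FPKM or more, those whose deviations were most like each regulator were found by Pearson's r over the 23 mice, as a description. For Ppargc1a they were Pde4d (r = 0.916), Peg3 (0.916) and Myo5a (0.909), and for Ppargc1b Kmt2a (0.942), Tnrc6b (0.940) and Tnrc6a (0.938). For Sirt3 they were Rtn2 (0.953), Egln2 (0.949) and Ckb (0.943), and for Esrra they included Raly (0.920) and Ckb (0.918). Ckb, the brain creatine kinase, was thus shared by these 2 regulators. For Gabpa they were Gpm6b (0.912), Styx (0.903) and Picalm (0.892), for Sirt1 Zfp948 (0.868), Zmym6 (0.854) and Zfp518a (0.853), and for Tfam Rpf2 (0.860), Dtwd1 (0.858) and Pex7 (0.857). For Polrmt they were Las1l (0.855), Zfp692 (0.847) and Ano8 (0.841), for Polg Csf1r (0.790), Foxf2 (0.776) and Acot11 (0.752), and for Nrf1 Itsn1 (0.778), Pitpnm2 (0.768) and Denn2b (0.758). Sirt3 had 1093 genes with r above 0.8 and Ppargc1b 542, whereas Nrf1 and Polg had 0. Genes with a negative r are not counted here. All 23 points share the libraries, and the levels of Sirt3, Esrra and Ppargc1b followed the length slope. These values of r were not computed without the 6 libraries or with the slope as covariate. How far they reflect the slope was therefore not tested.

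The other genes of the pathway were counted from 7 lists. None of their genes passed an adjusted p of 0.05 in any comparison (smallest adjusted p for the genes named here 0.900, limma). Of 31 partners and upstream regulators of the coactivators, 12 had a positive value in EtOH against Ctrl mice and 10 in EtOH-UA against EtOH mice. Without the 6 libraries these counts were 12 and 16 of 31, and with the length slope as covariate 11 and 15. Thra, the thyroid hormone receptor alpha, was the most abundant at 334 FPKM. Hcfc1, a factor that binds PGC-1 coactivators, was at 16.6 ± 2.61 in EtOH-UA and 18.2 ± 0.959 FPKM in EtOH mice (unadjusted p = 0.0708), and Pprc1, the third member of the PGC-1 family, at 4.48 ± 0.449 and 4.91 ± 0.419 FPKM (unadjusted p = 0.0888). Of 16 genes of mitochondrial DNA replication and upkeep, 6 had a positive value in EtOH against Ctrl mice and 11 in EtOH-UA against EtOH mice, with Tk2 the most abundant (16.2 FPKM). Without the 6 libraries both medians of this list turned, with 9 and 6 of 16 positive (medians 0.02 and -0.02, against -0.03 and 0.05 over all mice), and the covariate gave 7 and 8 of 16. Ssbp1, which coats single-stranded mitochondrial DNA, was at 14.5 ± 3.11 in EtOH-UA and 12.5 ± 1.46 FPKM in EtOH mice (unadjusted p = 0.0918).

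The smallest p-values of the lists were those of mitochondrial transcription factors. Mterf2 was at 10.2 ± 0.730 FPKM in EtOH-UA and 8.77 ± 0.514 in EtOH mice, with a log2 fold change of 0.21 (SE 0.06, limma unadjusted p = 0.00249, adjusted p = 0.900). Mterf3 was at 12.1 ± 0.97 and 10.6 ± 0.728 FPKM, with a log2 fold change of 0.18 (SE 0.06, unadjusted p = 0.00494, adjusted p = 0.900). Both belong to the family that regulates transcription of mitochondrial DNA. Ptcd1, which takes part in the processing of mitochondrial RNA, was at 6.57 ± 0.645 in EtOH and 7.32 ± 0.642 FPKM in Ctrl mice (log2 fold change -0.16, limma unadjusted p = 0.0223, adjusted p = 0.999). Of the 27 genes of this list, 8 had a positive value in EtOH against Ctrl mice and 21 in EtOH-UA against EtOH mice. The counts were 15 and 15 of 27 without the 6 libraries, where the median in EtOH against Ctrl mice turned from -0.03 to 0.0060, and 12 and 17 with the covariate. Grsf1, an RNA-binding protein of mitochondria, was the most abundant of the list (42.2 FPKM).

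In the lists of what the regulators act on, most genes lay on the same side of 0 within a comparison. Of 78 genes of the mitochondrial ribosome 11 had a positive value in EtOH against Ctrl mice (median log2 fold change -0.07), 77 in EtOH-UA against EtOH mice (median 0.11) and 64 in EtOH-UA against Ctrl mice (median 0.05), beside 48.6%, 51.2% and 51.2% of all genes tested. Of 35 nuclear targets, mostly subunits of the respiratory chain, the counts were 2, 32 and 25, and of 13 mitochondrial antioxidant genes 3, 11 and 10. Single genes did not pass: Mrps36, listed with the ribosome, was at 24.3 ± 4.41 in EtOH-UA and 19.5 ± 3.29 FPKM in EtOH mice (limma unadjusted p = 0.0112, adjusted p = 0.900), Cox5b, a subunit of cytochrome c oxidase, at 245 ± 68.2 and 206 ± 37.2 FPKM (unadjusted p = 0.126), and Txnrd2, the mitochondrial thioredoxin reductase, at 5.69 ± 1.05 and 5.15 ± 0.605 FPKM (unadjusted p = 0.212). The most abundant genes of these lists were Mrpl30 (46.5 FPKM), Atp5b (579 FPKM) and Gpx4 (175 FPKM).

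These counts moved with the library property described above. Without the 6 libraries, 26 of 78 genes of the mitochondrial ribosome had a positive value in EtOH against Ctrl mice, 45 in EtOH-UA against EtOH mice and 26 in EtOH-UA against Ctrl mice, and with the length slope as covariate 36, 37 and 32. The nuclear targets then counted 8, 18 and 8 of 35 without the libraries and 13, 14 and 7 of 35 with the covariate. The antioxidant genes counted 4, 5 and 8 of 13 without the libraries. The direction of the ribosome list in EtOH-UA against Ctrl mice thus reversed, with a median of -0.03 without the 6 libraries, as did that of the nuclear targets (-0.03). For the 10 regulators the counts of positive values were 6, 6 and 4 over all mice, 6, 6 and 6 without the 6 libraries and 3, 4 and 5 with the covariate. Of 13 other sirtuins and genes of NAD synthesis, 8, 6 and 8 were positive over all mice and 8, 9 and 9 without the 6 libraries. Sirt2 was the most abundant (56.8 FPKM), and Nadsyn1, the NAD synthetase, was at 1.83 ± 0.177 in EtOH-UA and 1.57 ± 0.269 FPKM in Ctrl mice (limma unadjusted p = 0.03, adjusted p = 0.999). Of the 13 protein genes of the mitochondrial DNA itself, 0 were found in the deposited values under the symbols searched, so they could not be analysed here.

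**Figure D5:**
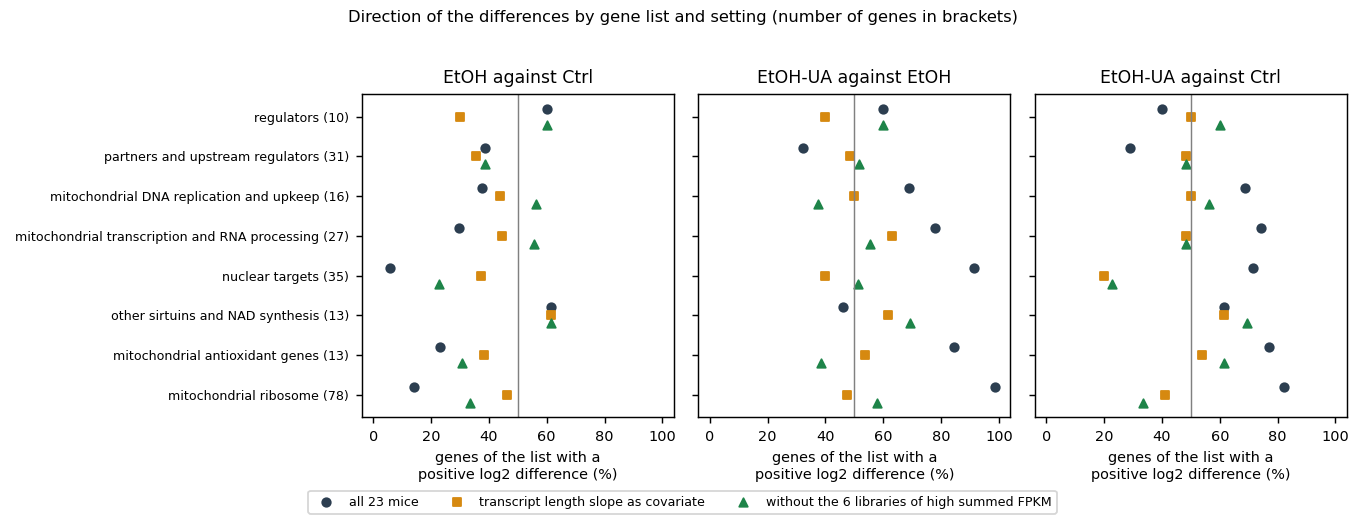
Share of genes with a positive log2 difference (horizontal axis, percent) in the 10 regulators and 7 gene lists for 3 comparisons, over all 23 mice (circles), with the length slope of each library as covariate (squares) and without the 6 libraries of high summed FPKM (triangles). Circles of the ribosome, target and antioxidant lists lie far from 50% (77 of 78 ribosome genes in EtOH-UA against EtOH mice), and their squares and triangles lie closer to it in that comparison.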

How the data were processed

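Hippocampal RNA of 23 mice was sequenced by the authors, who deposited a single table of FPKM to 2 decimals for 19733 genes. The submitters' processing notes name HISAT2 2.1.0, Bowtie2 2.2.5, RSEM 1.2.8, StringTie and DESeq, and the methods name mm10 (GRCm38) as the genome. The labels name total RNA, whereas poly(A)+ RNA is named in the methods. The count test of the methods was not applied, because deposited FPKM are not counts. FPKM are relative to the rest of each library, so that a shift in other transcripts moves them.

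Columns were matched to groups by their names, which carry mouse numbers and no replicate numbers. All 9 Ctrl mice were used, although a figure of the study counts 7 per group. Values were transformed as log2(FPKM + 0.1), and the 15985 genes that averaged 0.1 FPKM or more entered a single limma model (version 3.58.1, R 4.3.3) of 3 groups with an intensity trend, with Benjamini-Hochberg adjustment over all genes tested. Fold changes are on that scale. Mean FPKM of single genes were set against each other by exact permutation tests, two-sided, and correlations by 100000 permutations within groups (Python 3.11.15, numpy 2.4.6, scipy 1.17.1). The scripts were tested on simulated data. Gene coordinates and promoters came from RefSeq, and transcript lengths and exon overlaps from GENCODE vM21.

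Named were all regulators; from each list, among genes that averaged 1 FPKM or more, those with the smallest p in a comparison and the most abundant; and for each regulator the 3 genes with the highest r, of which a single gene is not reported here. The regulators and lists were chosen with earlier results of these data known. Alternatives were pseudocounts of 0.01 and 1, no filter or a filter at 1 FPKM, a fit of 2 groups alone, upper-quartile and quantile normalization, robust eBayes, array quality weights, the length slope as covariate, each mouse left out in turn, a promoter window that adds 50 bases after the start, and, chosen after seeing the data, leaving out the 6 libraries with a summed FPKM above 350000.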

Additional observations from a re-analysis of the deposited data

Results flagged for a closer look

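Of 30 groups tested (10 genes in 3 groups), 2 held a mouse far from the others by Dixon's ratio of the gap to the range, where chance gives about 1 in 20, or 1.5 of 30. Esrra in EtOH mouse 189 was 18.1 FPKM and the next highest EtOH mouse 14.4 FPKM, a gap of 0.654 of the range against a critical value of 0.568. This mouse is among the 6 libraries with a high summed FPKM and a negative length slope (-0.11). Without it the log2 fold change of Esrra in EtOH against Ctrl mice was -0.18, the lowest value over all mice left out in turn. Polg in EtOH-UA mouse 179 was 10.6 FPKM and the next lowest EtOH-UA mouse 12.9 FPKM, a gap of 0.618 of the range. Its library is not among the 6, with a summed FPKM of 333801 and a length slope of 0.06, and without it the log2 fold change of Polg in EtOH-UA against EtOH mice was 0.04 instead of -0.02. Neither gene passed the test with or without the mouse.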

How the results depend on the processing

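The number of regulators called stayed 0 in all 3 comparisons under every alternative and with each mouse left out. With array quality weights 1 gene of all tested was called in EtOH against Ctrl mice, and 1 regulator had an unadjusted p under 0.05 in EtOH against Ctrl mice (Esrra, -0.18) and 1 in EtOH-UA against Ctrl mice (Gabpa, 0.18). With mice left out in turn, the genes called ranged from 0 to 1 in each comparison (1 without Ctrl mouse 203 in EtOH against Ctrl mice, and 1 without EtOH-UA mouse 178 or 179 in both comparisons of EtOH-UA mice). The regulators at an unadjusted p under 0.05 ranged from 0 to 1 in both comparisons of EtOH-UA mice and stayed 0 in EtOH against Ctrl mice. It was Ppargc1a, against Ctrl mice without Ctrl mouse 200 (-0.22) and against EtOH mice without EtOH mouse 189 or 191 or EtOH-UA mouse 102 or 142 (-0.29 to -0.25). The pairs of regulators past the threshold went from 11 to 7 with upper-quartile scaling and to 0 without the 6 libraries, where fewer mice also lower the power.

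Several log2 fold changes changed sign, none of them past the adjusted threshold, among them Ppargc1b (-0.11) and Sirt3 (0.10), the next widest after Ppargc1a in EtOH-UA against EtOH mice. In EtOH against Ctrl mice these were Polrmt (0.0048) with upper-quartile scaling, Ppargc1b (-0.00056) with quantile normalization, Ppargc1a (-0.011), Ppargc1b (-0.045), Sirt1 (-0.017), Sirt3 (0.024) and Gabpa (-0.0030) with the length slope as covariate, and Nrf1 (-0.014) and Sirt3 (0.023) without the 6 libraries. In EtOH-UA against EtOH mice these were Nrf1 (-0.014) and Polrmt (-0.015) with upper-quartile scaling, Tfam (-0.022), Sirt3 (-0.0068) and Polrmt (-0.00066) with array quality weights, Ppargc1b (0.014), Tfam (-0.0085), Esrra (-0.029), Sirt1 (0.025), Sirt3 (-0.023) and Polrmt (-0.0094) with the length slope as covariate, and Tfam (-0.041) and Polg (0.00034) without the 6 libraries. In EtOH-UA against Ctrl mice these were Ppargc1b (0.0056), Sirt1 (0.046) and Sirt3 (-0.080) with array quality weights, Sirt1 (0.0079) with the length slope as covariate, and Sirt1 (0.053) and Polrmt (0.017) without the 6 libraries. The cause was not tested.

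With mice left out in turn, the ranges that held a change of sign were for EtOH against Ctrl mice Gabpa from -0.016 to 0.079, Polrmt from -0.038 to 0.023, Ppargc1a from -0.0078 to 0.11, Ppargc1b from -0.014 to 0.084, Sirt1 from -0.019 to 0.057 and Sirt3 from -0.092 to 0.0030, for EtOH-UA against EtOH mice Nrf1 from -0.010 to 0.022, Polg from -0.038 to 0.035, Polrmt from -0.032 to 0.026, Sirt1 from -0.073 to 0.035 and Tfam from -0.0088 to 0.068, and for EtOH-UA against Ctrl mice Polrmt from -0.033 to 0.015, Sirt1 from -0.041 to 0.044 and Tfam from -0.067 to 0.0093. No paired analysis was possible because the columns carry mouse numbers and no replicate numbers. The wider promoter window changed no count of regulators with a motif by more than 1.5 times, while the share of all windows with the YY1 motif went from 1.12% to 2.38%. Read depth is known only from the steps of low FPKM values, and differences inside the 95% intervals, which reach to -0.46 at the farthest, are not excluded.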
